A study of Mus musculus with 16 samples.

Results

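The genes described here are the histone genes of the mouse histone clusters, taken by name alone as every gene symbol that begins with Hist1h, Hist2h, Hist3h or Hist4h and sorted by histone class. The rule found 73 rows with 68 symbols. The 5 symbols that occur more than once (Hist1h2ao, Hist1h2ap, Hist1h4n, Hist2h2aa1 and Hist2h2aa2, 10 rows) were dropped, which left 63 genes of the 22293 symbols that occur once. By class, 6 were linker histones (h1), 14 were h2a, 19 h2b, 12 h3 and 12 h4. By cluster, 51 belonged to Hist1, 8 to Hist2, 3 to Hist3 and 1 to Hist4. Hist2h3c2-ps and Hist3h2bb-ps carry the suffix of a pseudogene.

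RNA was sequenced from germ cells of male mice of strain C57;ICR, either wildtype (WT) or knockout (KO), in a study of the microRNA miR-202 in male meiosis. Isolated spermatogonia came from pups at 6 to 7 days after birth (2 WT and 2 KO libraries). Spermatogonial stem cells came from pups of the same age and were then cultured with GDNF and bFGF (3 and 3). Isolated spermatocytes came from adults (3 and 3). Cell type and age thus cannot be told apart where spermatocytes are compared with the pup cells, nor cell type and culture where the cultures are compared with isolated cells. In bulk RNA fewer cells of a type and less RNA per cell cannot be told apart. All 3 cell types were taken from both genotypes, and the design describes the replicates as biological. The sources used here do not give how the knockout was made, how the cells were isolated, or whether RNA was selected by poly(A) or by depletion of ribosomal RNA.

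Values were FPKM (sequenced fragments divided by transcript length and by the mapped fragments of the library), as the authors deposited them. Read depth was not given, so no counting interval could be attached. Over the 22293 symbols, FPKM added up to between 260739 and 392100 in a library, and 9409 to 11944 of them reached 1. Mir202 was listed at 0 in every library of both genotypes, so the genotype labels could not be checked on it. Of 12 pachytene spermatocyte markers, 12 reached 1 FPKM in every spermatocyte library, with sums of 5681 to 6375 against 106 to 201 elsewhere. The spermatocyte libraries also held spermatid markers (12 of 12, sums of 1661 to 5377). The spermatogonia libraries held Sertoli cell markers (11 of 12 at 1 FPKM or more, sums of 1347 to 2137, against 9.83 to 123 elsewhere). The cultures expressed 12 of 12 markers of undifferentiated spermatogonia, and also fibroblast and feeder markers (11 of 11). Spermatogonia held fibroblast and feeder markers too, with mean sums of 689 FPKM in WT and 223 in KO, against 665 and 258 in cultures. Mean sums in WT and KO spermatogonia were 193 and 205 FPKM for Leydig markers and 224 and 50.4 for peritubular myoid markers. Spermatogonia KO library 2 stood apart by its spermatid markers (sum of 102, against 7.61 to 10.4 in the other 3 spermatogonia libraries).

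Cluster histone genes supply the core histones H2A, H2B, H3 and H4 and the linker histone H1 that package newly copied DNA, and most are transcribed in S phase into mRNAs that end in a stem-loop instead of a poly(A) tail. Some of them also give polyadenylated transcripts in cells that do not divide. Male germ cells in addition use testis forms from the same clusters: the linker histone H1t (Hist1h1t), which appears in pachytene spermatocytes, and TH2A (Hist1h2aa) and TH2B (Hist1h2ba), which stand in for somatic H2A and H2B. Replacement histones such as H3.3 are encoded outside the clusters by genes whose mRNAs are polyadenylated.

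The 250 bases before the RefSeq start sites of the testis genes Hist1h2ba and Hist1h1t and of the somatic linker gene Hist1h1c are shown first, because the results below turn on their contrasting levels. The sequences are from RefSeq on GRCm38.p6, whereas the deposited values refer to mm9, and no coordinates were converted. They run 5′ to 3′ on the strand of the gene. Capitals mark exact matches, on either strand, to TATAAA (the TATA box), CCAAT (its reverse complement is ATTGG), ATTTGCAT (the octamer of H2B promoters) and TGACGTCA (the cyclic AMP response element). None of these 4 words shares bases with another in the stretches printed. Hist1h2ba lies at chr13:23934157-23934406 on the minus strand, Hist1h1t at chr13:23695561-23695810 on the plus strand and Hist1h1c at chr13:23738557-23738806 on the plus strand.
Hist1h2ba: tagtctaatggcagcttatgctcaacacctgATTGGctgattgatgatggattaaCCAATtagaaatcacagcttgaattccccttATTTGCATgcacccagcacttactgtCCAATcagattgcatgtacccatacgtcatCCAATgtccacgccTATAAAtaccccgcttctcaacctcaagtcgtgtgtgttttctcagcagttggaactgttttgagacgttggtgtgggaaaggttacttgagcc
Hist1h1t: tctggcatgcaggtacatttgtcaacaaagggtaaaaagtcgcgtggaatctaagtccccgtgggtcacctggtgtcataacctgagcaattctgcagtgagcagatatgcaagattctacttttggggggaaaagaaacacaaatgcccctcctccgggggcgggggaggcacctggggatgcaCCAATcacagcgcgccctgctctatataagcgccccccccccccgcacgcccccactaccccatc
Hist1h1c: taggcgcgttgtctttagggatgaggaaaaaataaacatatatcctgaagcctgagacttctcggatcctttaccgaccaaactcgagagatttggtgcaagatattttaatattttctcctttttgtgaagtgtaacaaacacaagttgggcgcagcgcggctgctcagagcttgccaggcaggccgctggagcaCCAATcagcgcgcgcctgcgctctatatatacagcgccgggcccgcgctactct
The Hist1h2ba stretch held 4 CCAAT matches, 1 octamer and 1 TATAAA, and those of Hist1h1t and Hist1h1c held 1 CCAAT match each. Only exact words were counted. Similar letters, such as tatataa in the Hist1h1t stretch and tatatata in that of Hist1h1c, were not, so a missing match does not show a missing TATA box. Hist1h2aa lies on the other strand next to Hist1h2ba. Their start sites are 281 bases apart, so the 300-base windows of the pair (250 before and 50 after each start) share 220 bases and most of the same matches.

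All 63 genes matched a RefSeq symbol or synonym, 57 had a promoter in the table and 56 had exactly 1. Among these 56 windows of 300 bases, CCAAT occurred in 48 (85.7%, against 37.4% of the 32851 windows of all genes). TATAAA occurred in 33 (58.9% against 13.6%), the octamer in 13 (23.2% against 1.74%) and TGACGTCA in 4 (7.14% against 1.79%). Windows of several neighbouring h2a and h2b genes overlap, so a site can count for both genes of a pair. The TGACGTCA matches of Hist1h2ag and Hist1h2bj, for example, are the same site. The counts are thus of windows and not of separate sites. A match to a word is only a description of the letters in the window.

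The cluster histone genes were a small and variable share of these libraries. Together they made up 0.0289% to 0.112% of the summed FPKM of a library, and their highest single value was 42.4 FPKM (Hist1h4i in WT culture library 3). The dropped symbols do not enter these figures and reached higher values. Hist2h2aa1 reached 219 FPKM in WT spermatocyte library 1 and Hist1h2ao 78.0 in WT culture library 3. A gene counted as measurable in a cell type when it reached 1 FPKM in at least 2 libraries of that type. By this filter 42 genes were measurable in the cultures, 40 in spermatogonia and 18 in spermatocytes, 49 in at least 1 cell type and 14 in none. Replicates differed more than for other genes of similar level. Between 1 and 5 FPKM the median coefficient of variation within WT spermatogonia was 40.4% over 31 cluster histone genes and 12.6% over 3319 other genes. In WT cultures, between 5 and 50 FPKM, it was 45.1% over 17 cluster histone genes and 16.7% over 7002 others.

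**Figure D1:**
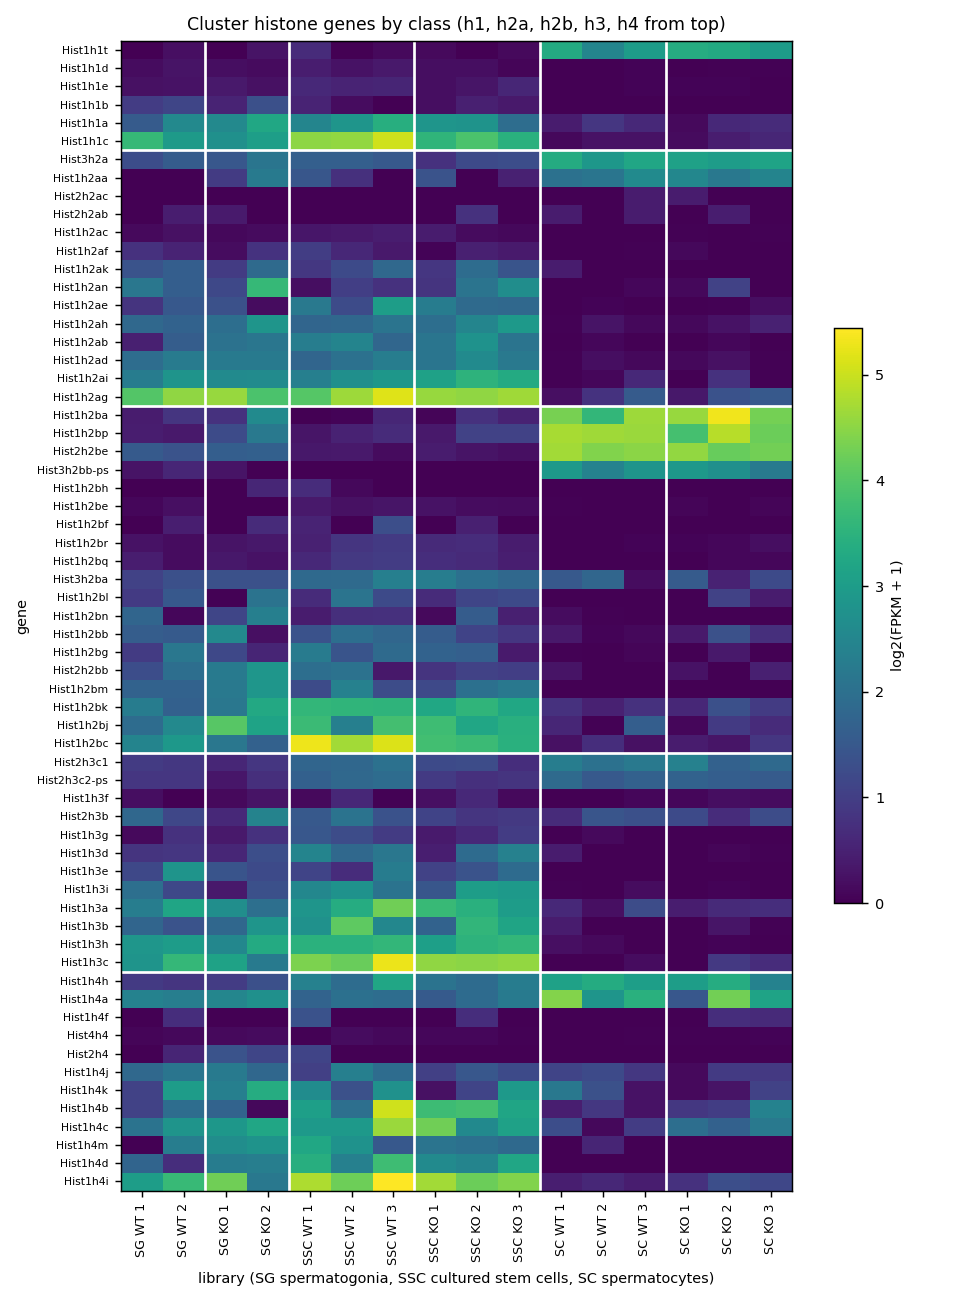
Each row is 1 of the 63 cluster histone genes and each column 1 of the 16 libraries; colour gives log2(FPKM + 1), and white lines part the classes and groups. Hist1h1t, Hist1h2ba, Hist1h2bp and Hist2h2be are bright in the spermatocyte columns, where most other rows are dark.

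Summed together, the 63 genes were highest in WT cultures among the WT groups, and the makeup by class differed in spermatocytes. The sum over all 63 was 148 ± 34.0 FPKM in WT spermatogonia (SD, n = 2), 314 ± 79.6 in WT cultures (SD, n = 3) and 128 ± 19.7 in WT spermatocytes (SD, n = 3). The h3 sum was 34.0 ± 8.32, 74.4 ± 15.5 and 8.23 ± 1.07 in these 3 groups, and the h2a sum was 39.1 ± 9.07, 49.5 ± 13.3 and 13.7 ± 2.95. The h2b sum was 28.6 ± 4.15, 71.4 ± 9.21 and 73.9 ± 9.15, so h2b was the class without a lower mean in spermatocytes than in cultures. In KO the h2b sum was 76.1 ± 16.8 in spermatocytes and 45.3 ± 4.07 in cultures (SD, n = 3 each). The h1 sum was 14.1 ± 0.830, 33.4 ± 7.86 and 7.61 ± 1.92, and the h4 sum was 32.2 ± 13.3, 84.9 ± 42.4 and 25.0 ± 8.67. The lower h1 and h4 sums of spermatocytes against spermatogonia turned to the other direction after median-ratio scaling of the libraries. That of h1 also turned without its highest member, and that of h4 without spermatogonia WT library 2. These sums leave out the dropped symbols, of which Hist2h2aa1 alone was listed at 157 to 219 FPKM in WT spermatocytes, more than the whole h2a sum.

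**Figure D2:**
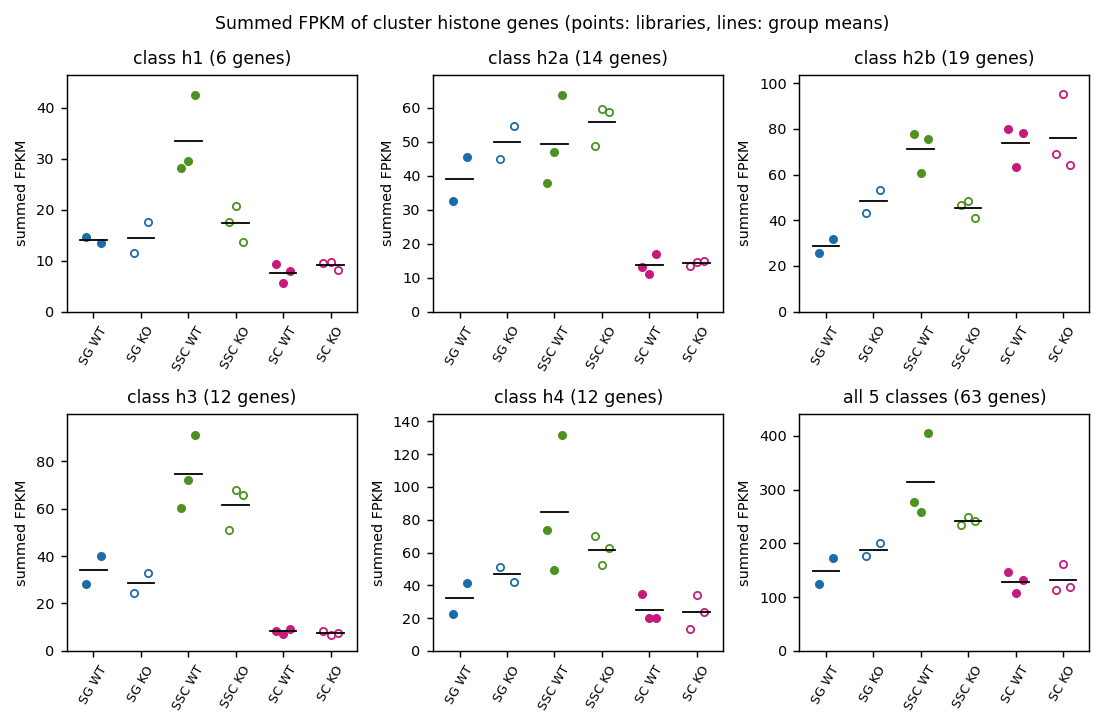
Summed FPKM of each histone class and of all classes in every library (filled points WT, open points KO, lines group means; SG spermatogonia, SSC cultured stem cells, SC spermatocytes). The h3 sums of spermatocytes lie between 6.86 and 9.09 and those of WT cultures between 60.2 and 91.0, whereas the h2b sums of WT spermatocytes (63.4 to 80.0) overlap those of WT cultures (60.8 to 77.6).

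Between spermatocytes and spermatogonia a few cluster histone genes were higher and most were lower in spermatocytes. The share of members called higher was below that of all genes, and the share called lower was above it. Tests used limma on log2(FPKM + 1) with p-values adjusted over all genes tested in a comparison (Benjamini-Hochberg, threshold 0.05), and log2 changes on this scale understate the change of low genes. In WT libraries 47 members were tested, of which 10 (21.3%) were higher and 29 (61.7%) lower in spermatocytes. Over all 13806 genes tested, 33.8% were called higher and 55.2% lower. The libraries of the groups did not overlap in 87.2% of the members and 93.3% of all genes. Only 11 of the 47 members reached the filter in both cell types. Of the called members, 7 of the 10 higher and 25 of the 29 lower were tested only because of the cell type in which they were high, so the counts describe levels and are no support for a difference of the members as a group. The median log2 change was -1.23 over the members and -0.73 over all genes. The median of all genes moved to -0.34 under quantile normalization and to -0.02 under median-ratio scaling. The members' calls then became 11 higher and 18 lower, and 11 higher and 26 lower. Of all 13806 genes, 5325 were higher and 6711 lower under quantile normalization, and 6111 and 6169 under median-ratio scaling. In KO libraries 9 members were higher and 27 lower (all genes: 34.3% and 53.9%). Of these members, 6 higher and 23 lower passed the filter only in the cell type where they were high. WT and KO libraries are different samples, but the filter used both. The overlap of calls over all genes was not determined, so the following shares are descriptions. In both genotypes 9 genes were called higher (90% of the WT calls, 100% of the KO calls) and 23 lower (79.3% and 85.2%). None was called in opposite directions. The higher gene called in WT only was Hist1h2aa, and this holds under the main setting but not under either scaling, as given below.

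**Figure D3:**
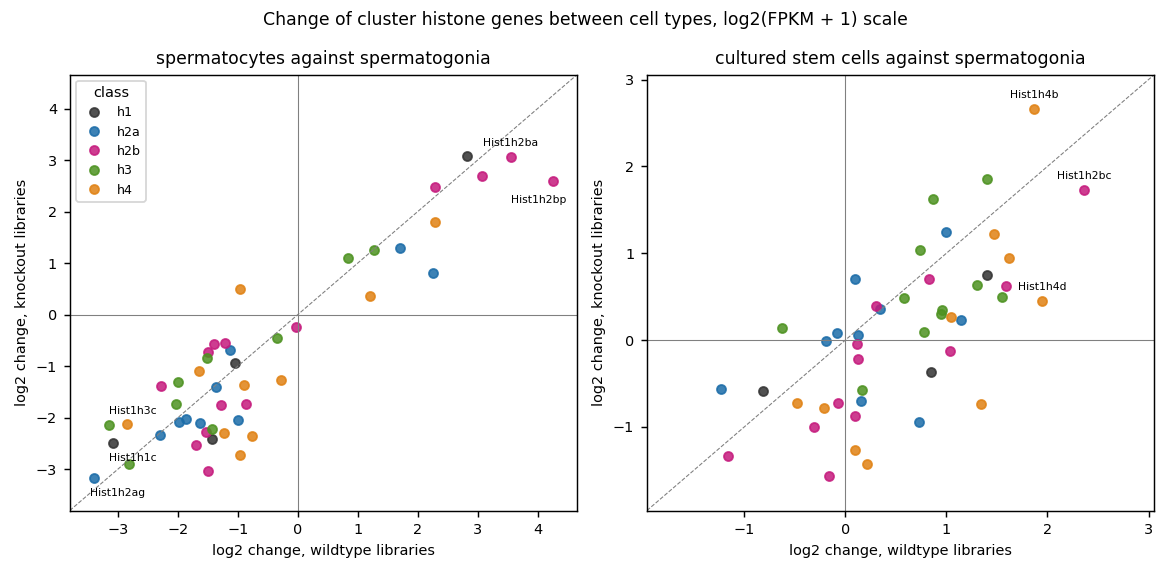
Log2 change of each tested member between cell types in WT libraries (horizontal axis) and in KO libraries (vertical axis), on the log2(FPKM + 1) scale; colours are classes and the dashed line marks equal change. On the left, the genes far to the upper right include Hist1h2bp (4.26 in WT, 2.58 in KO) and Hist1h2ba (3.55 and 3.06); on the right, Hist1h2bc stands at 2.36 and 1.73.

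Among the linker histones, Hist1h1t was the highest in spermatocytes, whereas Hist1h1c had the highest mean in WT spermatogonia and in cultures of both genotypes and Hist1h1a in KO spermatogonia. Hist1h1t was listed at 8.98, 4.56 and 7.06 FPKM in the WT spermatocyte libraries, at 0 and 0.173 in WT spermatogonia and at 0.590, 0 and 0.106 in WT cultures. Every spermatocyte library stood above every other library, and the log2 change against WT spermatogonia was 2.82 ± 0.23 (SE, adjusted p = 1.34e-08). Hist1h1t made up 81.8% to 97.3% of the h1 sum in spermatocytes and at most 2.08% in any other library.

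Hist1h1c, which encodes a widely expressed somatic linker histone, ran the other way. It was listed at 11.4 and 6.83 FPKM in WT spermatogonia and at 0.0836, 0.197 and 0.208 in WT spermatocytes, 2 groups that did not overlap. The log2 change was -3.09 ± 0.22 (adjusted p = 2.44e-09). Hist1h1a fell as well (-1.43 ± 0.35, adjusted p = 0.00128), as did Hist1h1b, which was listed at 0 in all spermatocyte libraries (-1.06 ± 0.19, adjusted p = 9.52e-05). Both are somatic linker genes. Hist1h1d and Hist1h1e did not reach the filter in any cell type.

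Of the h2a genes, Hist3h2a and the testis gene Hist1h2aa were higher in WT spermatocytes and 8 of the 10 tested were lower. Over all genes tested, 33.8% were higher and 55.2% lower. Hist3h2a was listed at 9.14, 6.37 and 8.35 FPKM in WT spermatocytes against 1.45 and 2.01 in WT spermatogonia, without overlap (log2 change 1.71 ± 0.20, adjusted p = 1.11e-06). Hist1h2aa was listed at 3.09, 3.34 and 5.06 FPKM in WT spermatocytes and at 0 in both WT spermatogonia libraries, so no linear fold is given (log2 change 2.25 ± 0.43, adjusted p = 0.000166). In KO spermatogonia Hist1h2aa was listed at 0.929 in library 1 and 3.63 in library 2, the library with spermatid markers. Its change in KO libraries did not pass the test (0.80, adjusted p = 0.0935). It did pass under quantile normalization (1.48, adjusted p = 0.00190), after median-ratio scaling (1.40, adjusted p = 0.00357) and without KO spermatogonia library 2 (1.43, adjusted p = 0.0161).

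Hist1h2ag was the highest h2a member outside spermatocytes and had the largest fall of all members on the log2(FPKM + 1) scale. Relative to level it was not the largest. Mean FPKM in WT spermatogonia and spermatocytes was 18.6 and 0.949 for Hist1h2ag, against 8.66 and 0.0429 for the h3 gene Hist1h3c. Hist1h2ag is the gene described next. It was listed at 14.8 and 22.3 FPKM in WT spermatogonia and at 0.168, 0.741 and 1.94 in WT spermatocytes (log2 change -3.41 ± 0.41, adjusted p = 1.17e-06). The spermatogonia libraries were all above the spermatocyte libraries. Hist1h2ai (-2.30), Hist1h2ad (-1.99) and Hist1h2an (-1.86) followed, of which Hist1h2an lost its call under quantile normalization (-1.37, adjusted p = 0.0573) and without spermatogonia WT library 1 (adjusted p = 0.0682), and the other 4 lower genes changed by -1.01 to -1.63. Several h2a genes are near-identical in sequence, so the values of single genes depend on how the authors' counting divided shared fragments, and that is uncertain here.

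The h2b class was carried in spermatocytes by Hist1h2bp, Hist2h2be and Hist1h2ba. Hist1h2ba, the TH2B gene whose promoter is printed above, was listed at 19.0, 11.1 and 23.9 FPKM in WT spermatocytes against 0.342 and 0.794 in WT spermatogonia (log2 change 3.55 ± 0.45, adjusted p = 2.04e-06). Hist1h2bp was listed at 25.7, 24.2 and 23.6 FPKM against 0.359 and 0.300 (4.26 ± 0.30, adjusted p = 2.01e-09). Hist2h2be, which encodes an H2B variant known from mouse olfactory neurons, was listed at 24.7, 20.2 and 21.5 FPKM against 1.90 and 1.61 (3.07 ± 0.15, adjusted p = 2.18e-11). None of the 3 overlapped between the groups. Together they made up 85.6% to 88.0% of the h2b sum in every spermatocyte library and 0.671% to 20.3% elsewhere.

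The fourth h2b symbol higher in spermatocytes was the pseudogene symbol Hist3h2bb-ps, at 6.62, 4.33 and 6.07 FPKM against 0.227 and 0.494 in WT spermatogonia (2.28 ± 0.19, adjusted p = 1.40e-08). It was listed at 0 in all 6 culture libraries. Of the 14 h2b genes tested, 8 were lower, where 55.2% of all genes tested were. Hist1h2bc and Hist1h2bm led them on the log2(FPKM + 1) scale. Hist1h2bc was listed at 4.47 and 6.50 FPKM in WT spermatogonia and at 0.184, 0.626 and 0.186 in WT spermatocytes (-2.28 ± 0.24, adjusted p = 2.37e-07). Hist1h2bm (-1.71 ± 0.32) was listed at no more than 0.00033 in any spermatocyte library.

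**Figure D4:**
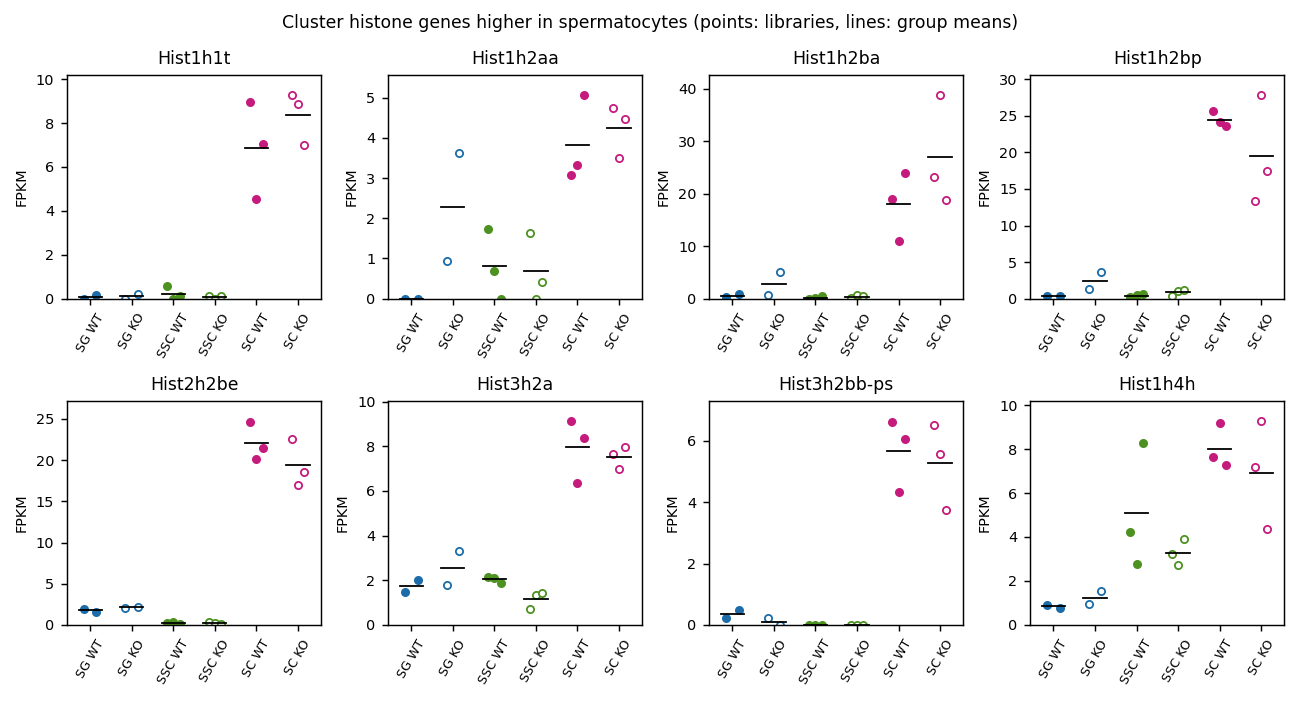
FPKM in every library of 8 members called higher in WT spermatocytes than in WT spermatogonia (filled points WT, open points KO, lines group means; SG spermatogonia, SSC cultured stem cells, SC spermatocytes). Each panel has its own axis from 0; Hist1h4h is the panel in which the cultures, at 2.73 to 8.28 FPKM, overlap the spermatocytes at 4.34 to 9.28.

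Of the 9 h3 genes tested, 2 were higher and 6 lower (all genes: 33.8% and 55.2%). Hist1h3c was listed at 6.01 and 11.3 FPKM in WT spermatogonia and at 0, 0 and 0.129 in WT spermatocytes (log2 change -3.16 ± 0.34, adjusted p = 3.92e-07). Hist1h3h was listed at 6.29 and 7.02 FPKM against 0.169, 0.104 and 0.00432 (-2.81 ± 0.20, adjusted p = 3.15e-09). Hist1h3a (-2.04) and Hist1h3e (-1.99) fell too. These are Hist1 genes, whereas both h3 symbols that rose lie in Hist2. Hist2h3c1 was listed at 3.91, 3.10 and 3.58 FPKM in WT spermatocytes against 0.919 and 0.851 (1.26 ± 0.21, adjusted p = 3.58e-05), and the pseudogene symbol Hist2h3c2-ps changed by 0.83 ± 0.15 (adjusted p = 6.72e-05). This pair shares its name stem, and how fragments were divided between them is uncertain.

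Of the 10 h4 genes tested, Hist1h4h was higher and 4 were lower (all genes: 33.8% and 55.2%). Hist1h4h was listed at 7.63, 9.17 and 7.27 FPKM in WT spermatocytes against 0.903 and 0.782 in WT spermatogonia (2.29 ± 0.31, adjusted p = 5.05e-06). Hist1h4i was listed at 0.363, 0.527 and 0.359 FPKM against 7.15 and 11.8 (-2.85 ± 0.45, adjusted p = 2.32e-05). Both differences were free of overlap. Hist1h4a, the highest h4 member of WT spermatocytes at 20.5, 6.16 and 9.92 FPKM, stood at 4.32 and 4.05 in WT spermatogonia and did not pass the test (1.20 ± 0.58, adjusted p = 0.0617). Hist1h4j was called lower (-0.91 ± 0.32), but its sign turned under quantile normalization.

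In sum over the members, the 10 genes called higher in WT spermatocytes held 73.4% to 88.6% of the members' summed FPKM in each spermatocyte library and 3.28% to 10.5% in each other library. Spermatogonia KO library 2 gave the 10.5%. Since WT spermatocytes entered the choice of these 10 genes, the share is a description. Against WT cultures, WT spermatocytes had 9 members higher and 32 lower of 46 tested (all genes: 33.2% and 56.9%), of which 4 and 27 passed the filter only in the cell type in which they were high. The 4 largest falls were those of Hist1h2bc (-4.65), Hist1h3c (-4.56), Hist1h1c (-4.49) and Hist1h4i (-4.32). Hist1h4a was called higher in that comparison (1.68, adjusted p = 0.00637). In KO libraries 10 members were higher and 29 lower (all genes: 33.3% and 55.9%). Of these members, 4 and 25 passed the filter only in the cell type where they were high.

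The culture libraries had higher levels of several cluster histone genes than the spermatogonia libraries. Somatic markers differed too between these WT libraries. In cultures 11 of 11 Sertoli and 6 of 6 Leydig markers tested were lower, and 4 of 5 macrophage markers were higher. Of 11 fibroblast and feeder markers 4 were higher and 4 lower. The part of these cells in the histone values was not tested. In WT libraries 17 of 46 members tested (37.0%) were higher and 2 (4.35%) lower, where all genes gave 30.5% and 22.6%. The groups did not overlap in 47.8% of the members and 66.7% of all genes. The median log2 change was 0.66 over the members and 0.12 over all genes. By class, 5 of 10 h4 genes and 7 of 11 h3 genes were higher, against 2 of 10 h2a, 2 of 12 h2b and 1 of 3 h1 genes. Of the called members, 5 of the higher and both of the lower passed the filter only in the cell type in which they were high. The count of higher genes was 7 without spermatogonia WT library 1 and 10 with a pseudocount of 0.1.

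The largest change on the log2(FPKM + 1) scale was that of Hist1h2bc. This gene was listed at 38.5, 24.6 and 34.4 FPKM in WT cultures against 4.47 and 6.50 in WT spermatogonia (log2 change 2.36 ± 0.24, adjusted p = 1.27e-06). Hist1h1c was listed at 21.8, 22.7 and 32.0 FPKM against 11.4 and 6.83 (1.40 ± 0.22, adjusted p = 8.85e-05). In both genes all culture libraries were above all spermatogonia libraries. Among h4 genes, Hist1h4d was listed at 9.61, 4.19 and 12.4 FPKM against 2.36 and 0.631 (1.95 ± 0.34, adjusted p = 0.000253), and Hist1h4h rose by 1.62 ± 0.31 (adjusted p = 0.000541). Hist1h2bk, an H2B gene, was even across replicates at 11.1, 10.7 and 10.7 FPKM against 3.89 and 2.16 (1.59 ± 0.28, adjusted p = 0.000280).

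Other calls of this comparison rested on few libraries. Hist1h4b was listed at 7.46, 2.97 and 32.0 FPKM in WT cultures and changed by 1.86 ± 0.70 (adjusted p = 0.0363, 0.234 without spermatogonia WT library 1). Hist1h4i (1.47, adjusted p = 0.0132), Hist1h3b (1.55, 0.0167) and Hist1h3c (1.40, 0.00342) gave adjusted p-values of 0.137, 0.0504 and 0.0777 without that library. Hist1h4m (1.34 ± 0.52) gave 0.777 without it. Hist1h3d (1.30 ± 0.39) and Hist1h2ab (1.14 ± 0.28) were also called higher. The 2 lower genes were Hist2h2be, listed at 0.276, 0.303 and 0.122 FPKM in WT cultures against 1.90 and 1.61 (-1.16 ± 0.15, adjusted p = 1.09e-05), and Hist1h1b (-0.82 ± 0.19, adjusted p = 0.00246).

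In KO libraries, cultures had 10 members higher and 7 lower than spermatogonia (all genes: 32.2% and 22.4%), with lower counts of 3 to 11 when a single library was left out. Of the KO calls, 1 higher and 3 lower passed the filter only in the cell type where they were high. The overlap of calls over all genes was not determined. Of the higher genes, 7 were called in both genotypes, given as a description (41.2% of the WT calls, 70% of the KO calls). They included Hist1h2bc (1.73 in KO), Hist1h4b (2.66), Hist1h3c (1.86) and Hist1h1c (0.75). Without KO spermatogonia library 2 the change of Hist1h4b was 1.85 (adjusted p = 0.103). The call of Hist1h1c was lost with a pseudocount of 0.1 (adjusted p = 0.0881) and without KO spermatogonia library 1 (0.0980). Hist2h2be and Hist1h1b were lower in both.

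Between knockout and wildtype spermatogonia few members were called. Of 40 tested, 2 (5.0%) were higher in KO, where 0.917% of all 11997 genes tested were, and 0 were lower, where 5.76% of all genes were. At an unadjusted p under 0.05 there were 12, and the share of all genes at that cut was not determined. Hist1h2bp was listed at 1.36 and 3.58 FPKM in KO against 0.359 and 0.300 in WT (log2 change 1.31 ± 0.33, adjusted p = 0.0259), and Hist2h4, an h4 gene, at 1.63 and 1.19 against 0 and 0.468 (0.99 ± 0.28, adjusted p = 0.0474). Both genes reached the filter only through the KO libraries in which they were high, so their share of the tested members is no support for a difference. Without the filter the adjusted p of Hist2h4 was 0.0698. Neither pair of groups overlapped, as was the case for 40.0% of the members and 56.1% of all genes. Without KO library 2, which holds the spermatid markers, the adjusted p-values were 0.270 for Hist1h2bp and 0.117 for Hist2h4. Without WT library 1 they were 0.136 and 0.453, and no member was then called. With only the 4 spermatogonia libraries in the model, 8 members were called higher and 1 lower. The share of all genes called in that model was not determined, so these counts are no support for a difference of the members.

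The testis genes did not pass the filter in spermatogonia. Hist1h2ba was listed at 0.342 and 0.794 FPKM in WT and at 0.700 and 5.05 in KO, the last in library 2. The summed spermatid markers were 7.61 and 10.4 FPKM in WT and 9.24 and 102 in KO. Other marker lists moved with the genotype in spermatogonia as well. The 10 markers of differentiating spermatogonia summed to 283 and 332 FPKM in WT and 492 and 373 in KO. Their median log2 change was 0.60, with 1 called higher and 7 at an unadjusted p under 0.05. The share of all genes at that cut was not determined. Of 10 fibroblast and feeder markers tested 7 were called lower in KO, as were 5 of 8 peritubular myoid markers, which summed to 193 and 255 FPKM in WT and 49.3 and 51.5 in KO. The part of these cells in the histone values of KO spermatogonia was not tested.

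In spermatocytes 0 of 18 members tested were called with limma in either direction, and of all 10271 genes 0% were higher and 0.00974% lower. At an unadjusted p under 0.05 there was 1 member, Hist1h4c. It was listed at 2.90, 2.24 and 3.62 FPKM in KO against 1.44, 0.0914 and 0.954 in WT (log2 change 1.16, adjusted p = 0.999). Its groups did not overlap, as was the case for 11.1% of the members and 7.96% of all genes. None of the testis genes passed the test. Hist1h1t was listed at 9.26, 8.86 and 6.98 FPKM in KO (change 0.28), Hist1h2aa at 4.74, 3.50 and 4.48 (0.13) and Hist1h2ba at 23.2, 38.8 and 18.9 (0.56). Hist1h2bp was listed at 13.4, 27.8 and 17.5 FPKM (-0.37) and Hist2h2be at 22.6, 17.0 and 18.5 (-0.19). Changes of Hist1h4i (0.59) and Hist1h4j (-0.42) did not pass either. A p that misses the threshold does not show that the genotypes are alike.

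In cultures 4 of 42 members tested (9.52%) were lower in KO and 0 were higher, where all 12046 genes gave 5.84% and 0.324%. At an unadjusted p under 0.05 there were 9, again without a share of all genes at that cut. The 4 were Hist1h2bc, Hist1h1c, Hist2h3c2-ps and Hist2h3c1.

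Hist1h2bc was listed at 12.8, 12.1 and 9.88 FPKM in KO cultures against 38.5, 24.6 and 34.4 in WT (log2 change -1.40 ± 0.21, adjusted p = 0.000912). Hist1h1c was listed at 10.8, 13.9 and 9.91 FPKM against 21.8, 22.7 and 32.0 (-1.07 ± 0.20, adjusted p = 0.00311). Every KO library lay below every WT library in both genes, while the groups overlapped in the high members Hist1h2ag, Hist1h3c and Hist1h4i. With a pseudocount of 0.1 the adjusted p-values were 0.0682 and 0.109. The share of Hist1h2bc in the h2b sum was 24.2% to 27.3% in KO and 40.5% to 49.6% in WT.

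Hist2h3c2-ps was listed at 0.894, 0.695 and 0.775 FPKM in KO cultures against 2.19, 2.59 and 2.77 (-0.97 ± 0.13, adjusted p = 0.000402). It reached the filter only through the WT libraries in which it was high. Hist2h3c1 was listed at 1.34, 1.40 and 0.640 FPKM against 2.42, 2.53 and 3.09 (-0.81 ± 0.19, adjusted p = 0.0150). Both were free of overlap, as were 16.7% of the members and 18.3% of all genes. The call of Hist2h3c1 was lost after scaling by quantiles (adjusted p = 0.108) or median ratios (0.0822), with only the cultures in the model (0.0953), and without WT library 3 (0.0536) or KO library 3 (0.0899).

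Most markers of fibroblasts and feeder cells were lower in KO cultures as well. Of 11 markers, 8 were lower in KO cultures and 0 higher (median log2 change -1.36), and their sums were 852, 702 and 441 FPKM in WT libraries 1 to 3 and 307, 295 and 171 in KO libraries 1 to 3. Of 6 peritubular myoid markers tested, 4 were lower. The sums of that list were 137, 86.2 and 153 FPKM in WT libraries 1 to 3 and 34.9, 49.6 and 17.5 in KO libraries 1 to 3. None of the fibroblast markers was at 0 in a culture library. WT culture library 3 had the lowest fibroblast sum of its group but the highest peritubular myoid sum. In that library Hist1h1c, Hist2h3c1 and Hist2h3c2-ps were at their highest of the 3 WT cultures. Hist1h2bc was below its value in library 1. In spermatogonia the fibroblast sums were 605 and 774 FPKM in WT and 218 and 227 in KO, and Hist1h2bc (-0.76, adjusted p = 0.102) and Hist1h1c (-0.42, adjusted p = 0.378) did not pass the test there. Hist2h3c1 (0.919 and 0.851 FPKM in WT, 0.505 and 0.810 in KO) and Hist2h3c2-ps (0.810 and 0.828 in WT, 0.264 and 0.664 in KO) stayed below the filter in spermatogonia and were not tested. The part of these cells in the histone values was not tested.

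**Figure D5:**
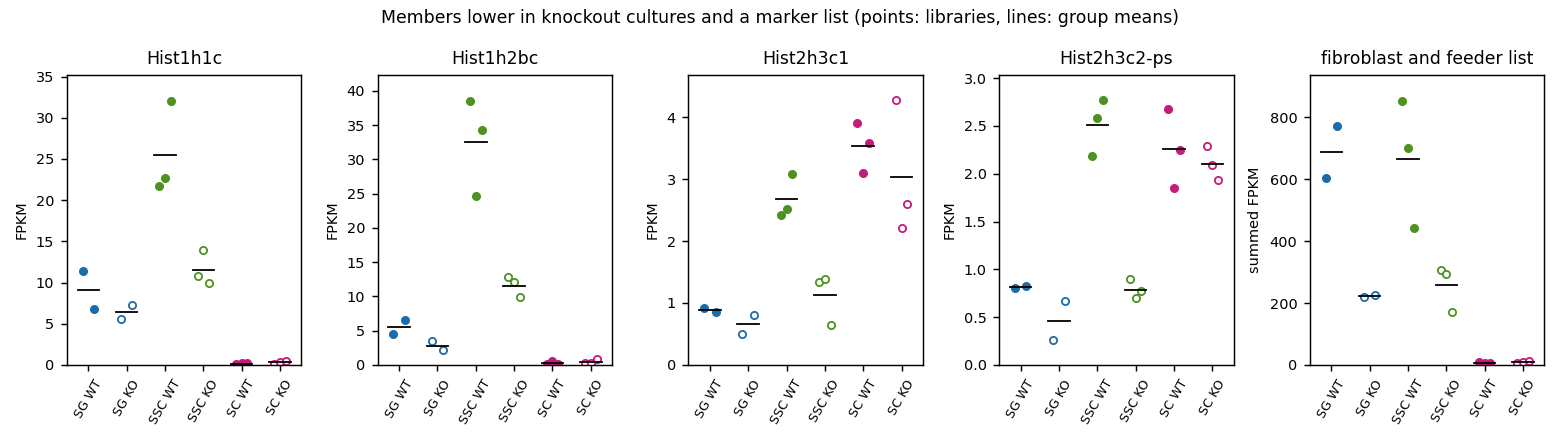
FPKM of the 4 members called lower in KO cultures, and the summed FPKM of the fibroblast and feeder list, in every library (filled points WT, open points KO, lines group means; SG spermatogonia, SSC cultured stem cells, SC spermatocytes). In cultures the KO points of all 5 panels lie below the WT points; the marker sums are 171 to 307 in KO and 441 to 852 in WT.

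The KO effect of 3 members differed between spermatocytes and cultures by a test of the difference itself, of 46 tested (1.96% of all genes differed in that direction). The difference was 1.52 for Hist1h2bc (adjusted p = 0.0190), 1.25 for Hist1h1c (0.0313) and 0.91 for Hist2h3c2-ps (0.0205). Hist1h2bc and Hist1h1c were below 1 FPKM in all 6 spermatocyte libraries and were tested here only because of the cultures. The log2(FPKM + 1) scale holds their spermatocyte change near 0, so for these genes the difference largely restates the change in cultures. The count was 0 without spermatocyte WT library 3, without culture KO library 3 or with a pseudocount of 0.1. Between spermatogonia and spermatocytes, and between spermatogonia and cultures, 0 members differed with limma (all genes: 2.14% and 1.81%). At an unadjusted p under 0.05 there were 8 and 12, and the share of all genes at that cut was not determined.

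Genes outside the clusters that act on histones or in S phase were measured in the same libraries. Of 24 S phase genes, 18 were lower and 3 higher in WT spermatocytes than in WT spermatogonia (median log2 change -1.61). Over all genes tested, 55.2% were lower and 33.8% higher, with a median of -0.73. Mcm2, a subunit of the replicative helicase, was at 0.722 ± 0.268 FPKM (SD, n = 3) against 85.5 ± 9.04 (SD, n = 2), with a log2 change of -5.66. Cdt1, which loads that helicase, changed by -4.98. In WT cultures 12 of the 24 were higher than in spermatogonia and 1 lower (all genes: 30.5% and 22.6%). Among the higher were Uhrf1 (1.46) and Pola1 (1.29). In cultures the S phase sums were 1069 to 1338 FPKM in WT and 1176 to 1350 in KO, and 0 of the 24 were called between genotypes there with limma (1 at an unadjusted p under 0.05).

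Of 22 tested genes of histone gene transcription and pre-mRNA processing, 7 were higher and 11 lower in WT spermatocytes than in WT spermatogonia, shares near the 33.8% and 55.2% of all genes. E2f1, a transcription factor of S phase, changed by -4.04, Casp8ap2, which is needed for histone mRNA processing, by -2.28, and the cap-binding gene Ncbp1 by 2.42. In WT cultures 13 of 22 were higher than in spermatogonia and 1 lower (all genes: 30.5% and 22.6%). Of 22 histone chaperones, 5 were higher and 14 lower in WT spermatocytes (all genes: 33.8% and 55.2%). Atrx, which deposits H3.3 with Daxx, changed by -4.02 and Daxx by 1.44. Anp32e, a chaperone of H2A.Z, changed by -4.91.

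Of 15 tested replacement and variant histones outside the clusters, 6 were higher and 7 lower in WT spermatocytes (all genes: 33.8% and 55.2%). The linker genes of spermatids Hils1 and H1fnt were at 81.5 ± 6.05 and 40.9 ± 12.7 FPKM in WT spermatocytes (SD, n = 3), each above every cluster member of those libraries, and at most 1.19 FPKM in any spermatogonia or culture library. H2afb1 was at 27.8 ± 7.80 FPKM and H2afy3 at 21.1 ± 1.28 in the same libraries. Cenpa, the centromeric H3 (-5.43), H2afy2, a macroH2A (-3.88), H1f0, a linker of resting cells (-3.76), and H2afv, an H2A.Z gene (-3.00), fell most. H3f3b and H3f3a, which encode H3.3, fell by 1.13 and 0.88 on the log2 scale but were still at 206 ± 65.8 and 160 ± 17.4 FPKM, far above all cluster h3 genes. H2afj fell by 0.81, H1fx rose by 0.55 and H2afy by 0.28, and H2afz (0.69) and H2afx (-0.15) did not pass the test. In WT cultures H3f3a (-0.90) and H3f3b (-0.92) were lower than in spermatogonia and H2afj (0.58) was higher. Between KO and WT, limma called 0 of the genes on these 4 lists (S phase, processing, chaperone and variant histone genes) in any cell type, of 77 tested in spermatogonia, 72 in spermatocytes and 78 in cultures. At an unadjusted p under 0.05 there were 6, 1 and 2, without a share of all genes at that cut.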

How the data were processed

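Expression was taken as the FPKM values the authors deposited, 1 per gene symbol and library. TopHat2 2.0.6, Cufflinks 2.0.2 and the build mm9 are named in the submitters' processing notes, without roles or settings. Per the labels, TRIzol was used for extraction, a directional NEBNext Ultra kit for the libraries and a HiSeq-X10 for sequencing. Each file held 23021 rows. The 259 symbols that occur more than once (728 rows) were left out.

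Values were analysed as log2(FPKM + 1) with limma 3.58.1 under R 4.3.3 (two-sided, with a mean-variance trend). A single model of 6 group means was fitted to all 16 libraries for 14480 genes and left 10 residual degrees of freedom. Genes entered a comparison when they reached 1 FPKM in at least 2 libraries of a cell type in it, and the Benjamini-Hochberg adjustment ran over all genes of the comparison, with a threshold of 0.05. Error terms of log2 changes are standard errors. Counts at an unadjusted p under 0.05 are given without the share of all genes and are descriptions only. The members and the lists of companion and marker genes were chosen with earlier results of these data known. Named members are those called with a mean of at least 1 FPKM in a group, up to 12 in each direction, or the 3 smallest p in each direction where none was called. Hist1h1t, Hist1h2ba, Hist1h2aa and the highest member of each class were named as well, and other members are named where a count turns on them.

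On simulated data with 100 genes changed by 1 on the log2 scale, 70 were recovered in spermatogonia, 82 in spermatocytes and 82 in cultures. Of 100 changed by 2, 98, 97 and 100 were recovered, with 5, 11 and 9 false calls. The changed genes were drawn from those with a WT mean above 2 on the log2(FPKM + 1) scale. Many members lie lower and vary more between replicates, so these rates do not carry over to the members. Alternatives were a pseudocount of 0.1, no filter, quantile normalization, median-ratio scaling, only the groups compared, a replicate block and each library left out. Promoter windows came from RefSeq on GRCm38.p6 (Python 3.11.15, numpy 2.4.6, pandas 2.3.3). Figures were drawn with matplotlib 3.10.9.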

Additional observations from a re-analysis of the deposited data

Results flagged for a closer look

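For 3 members the difference between KO and WT was not the same in spermatocytes and in cultures by the test of that difference on the log2(FPKM + 1) scale. The excess of the spermatocyte change over the culture change was 1.52 for Hist1h2bc, 1.25 for Hist1h1c and 0.91 for Hist2h3c2-ps. Hist1h2bc and Hist1h1c were below 1 FPKM in every spermatocyte library, so their difference largely restates the change in cultures. Fibroblast and feeder markers summed to 6.00 to 11.5 FPKM in spermatocytes and were lower in KO than in WT cultures, and their part in these differences was not tested.

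Symbols left out because they occur more than once held higher values than any member. Hist2h2aa1, an H2A gene of the Hist2 cluster, was listed in 2 rows per library and reached 219 FPKM in WT spermatocyte library 1. It ranged from 157 to 219 FPKM in WT spermatocytes and from 157 to 162 in KO spermatocytes. In the other cell types it was listed at 6.27 to 7.78 in WT spermatogonia, 5.84 to 11.2 in KO spermatogonia, 8.18 to 9.05 in WT cultures and 2.86 to 3.72 in KO cultures. Hist1h2ao, also an H2A gene, reached 78.0 FPKM in WT culture library 3, with ranges of 40.1 to 78.0 in WT cultures, 28.9 to 44.8 in KO cultures and 1.28 to 3.58 in WT spermatocytes. Neither was tested.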

How the results depend on the processing

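Of 125 called results of named members, 94 held under every setting tried, 29 were lost when some library was left out and 15 with a pseudocount of 0.1. With that pseudocount, the counts became 1 member higher in KO spermatogonia, 2 lower in KO cultures, 10 higher in WT cultures than spermatogonia and 0 for the difference of KO effects between spermatocytes and cultures. Without the filter, 1 member was higher in KO spermatogonia. With only the groups compared, 8 were higher and 1 lower there, and 1 differed between spermatocytes and spermatogonia in its KO effect. The shares of all genes under that setting were not determined. Quantile normalization left 18 members lower in WT spermatocytes than spermatogonia (6711 of all 13806 genes tested), and median-ratio scaling left 1 differing between spermatocytes and cultures. The log2 ratios of class sums, WT spermatocytes over spermatogonia, were -0.89, -1.52, 1.37, -2.05 and -0.36 for h1, h2a, h2b, h3 and h4. After median-ratio scaling they were 0.0030, -0.64, 2.26, -1.16 and 0.55, and without the highest member 0.58, -0.69, 0.80, -1.63 and -1.13. Apart from the changes that follow from fewer samples, the cause of these shifts was not tested.

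When each library was left out, these ratios ranged from -1.07 to -0.71, -1.74 to -1.26, 1.23 to 1.52, -2.28 to -1.77 and -0.73 to 0.14. Counts of calls ranged from 0 to 3 higher in KO spermatogonia, 0 to 1 higher and 3 to 5 lower in KO cultures, 7 to 17 higher in WT cultures than spermatogonia, and 3 to 11 lower in KO cultures than spermatogonia. For differences of KO effects they ranged from 0 to 1 higher and 0 to 2 lower (spermatocytes against spermatogonia), 0 to 2 lower (cultures against spermatogonia) and 0 to 4 higher (spermatocytes against cultures). The signs of 5 tests that had not passed turned in at least 1 setting. The change of Hist1h2aa in KO cultures was 0.026 under quantile normalization and -0.48 to 0.26 without a library. In the difference of KO effects between spermatocytes and cultures, Hist1h2ba gave -0.44 with a pseudocount of 0.1 and Hist1h2aa gave -0.13 to 0.61 without a library. Between spermatocytes and spermatogonia Hist1h2ba gave -1.41 to 0.42, and between cultures and spermatogonia Hist1h3e gave -0.056 to 1.59, each without a library.

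Same-numbered WT and KO libraries deviated together with correlations of -0.32 to 0.25 in spermatocytes and -0.06 to 0.22 in cultures. Differently numbered libraries gave -0.18 to 0.36 and -0.20 to 0.29. The highest were 0.36 for spermatocyte WT 2 with KO 3 and WT 3 with KO 2, and 0.29 for culture WT 2 with KO 1. No block on such sets was fitted. In spermatogonia the values were -0.12 and, crossed, 0.12. With 2 libraries per group these mirror each other, so they cannot decide on pairing. With the number as a replicate block, 2 members were higher in KO spermatogonia, 4 lower in KO cultures, 10 higher and 29 lower in WT spermatocytes and 16 higher in WT cultures than spermatogonia, and 1 member was lower in the difference between spermatocytes and spermatogonia. The block ended the calls of Hist2h4 in KO spermatogonia (adjusted p = 0.0578, 0.0604 with crossed numbers), Hist1h4b in WT cultures against spermatogonia (0.0632) and Hist1h3a in KO cultures against spermatogonia (0.0661). With the spermatogonia numbers crossed, an alternative chosen after seeing the data, 2 members were higher in KO spermatogonia and 0 lower.

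Depth is unknown, groups hold 2 or 3 libraries and members varied more between replicates than other genes of like level. Near-identical members share fragments, and how the authors divided them is not given in the sources used here.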

Other observations

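Some members had nearly the same profile over the 16 libraries, as Pearson's r of log2(FPKM + 1), given as a description, since all genes share the same libraries and cell types. Hist1h2ad and Hist1h2ai gave 0.980, Hist1h2bq and Hist1h2br 0.978, Hist1h2ba and Hist1h2bp 0.973, and Hist2h2be and Hist3h2bb-ps 0.973. Hist1h2bq and Hist1h2br stayed under 1 FPKM in all libraries.

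Of 14 genes of G2 and M phase, 2 were lower in KO than in WT spermatogonia, where 5.76% of all genes were. They were Kif23 (-0.70, adjusted p = 0.0113) and Cdk1 (-0.86, adjusted p = 0.0179). In spermatocytes and cultures 0 were called with limma (0 and 1 at an unadjusted p under 0.05). In WT spermatocytes 5 of the 14 were higher and 5 lower than in WT spermatogonia (all genes: 33.8% and 55.2%). Of 24 S phase genes 18 were lower, a difference that was not tested.

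The macrophage list summed to 150 to 176 FPKM in WT cultures, 91.9 to 131 in KO cultures and at most 5.08 elsewhere. Of 5 macrophage markers tested in cultures, 1 was lower in KO.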
